A study of Mus musculus with 110 samples.

Results

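The comparison described here is the interaction between a zinc-finger protein (ZFP) treatment and genotype in the astrocyte pulldown of R6/2 and NCAR mice. For each gene it is the log2 change with ZFP in R6/2 less the log2 change with ZFP in NCAR, and it asks whether the ZFP response depends on genotype. It was taken over all pulldown (IP) libraries labelled n_ZFP_a_Rpl, which are 15 of the 110 libraries of the series. They comprise 4 libraries of NCAR with the control vector Delta (ND), 4 of NCAR with ZFP (NZ), 3 of R6/2 with Delta (RD) and 4 of R6/2 with ZFP (RZ). Every library is labelled with the strain R6/2, including those labelled NCAR, and NCAR is not spelled out in the labels. The labels state that ZFP and Delta were delivered by AAVs specific to a cell type, so every group received a vector. Left unstated are the cell type that received ZFP in this set, its promoter, the tissue, the age, or whether a replicate is 1 animal or a pool, so p-values measure the spread between these samples.

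R6/2 mice carry the first exon of a mutant human huntingtin gene with an expanded CAG repeat, and are a standard model of Huntington's disease. In the brain the disease first affects the striatum, whose projection neurons lose the expression of many genes that mark their identity. Zinc-finger repressors of this kind bind CAG repeats and block transcription of the gene that holds them. RiboTag pulldown recovers RNA bound to ribosomes whose subunit Rpl22 carries an HA tag in a chosen cell type, here labelled astrocytes, the glial cells that take up transmitters and potassium and supply neurons with lipids.

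A total of 2512 of 15246 genes had an interaction at an adjusted p under 0.05 (edgeR's quasi-likelihood test with Benjamini-Hochberg adjustment, as for every adjusted p below). Of these, 1739 (11.4% of genes tested) were higher, that is, their change with ZFP was more positive in R6/2 than in NCAR, and 773 (5.07%) were lower. Cd4, Scn4b, Sec14l3 and Kcnh4 were the highest named genes, and 31 of 36 markers of striatal projection neurons tested, Penk among them, were higher. Tpx2, a spindle assembly factor, had the lowest interaction of the named genes, and the lower side included Abca1 and Cst3, which are abundant in astrocytes. The typical size was small, with a median log2 interaction of 0.46 among the higher genes and -0.32 among the lower genes, against 0.0065 over all genes. Only 229 higher and 25 lower genes exceeded 1 in size on the log2 scale.

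The split into higher and lower depends on how libraries are scaled. With scaling factors taken from the genes over 2-fold higher in an astrocyte pulldown than in a neuron pulldown of other libraries, a choice made after the data were seen, 2903 genes were higher and 69 lower, and the median of all genes moved to 0.18. All 1739 higher genes remained called. Of the 773 lower genes, 68 remained called, 750 kept their sign and none was called in the opposite direction. The scaling centres the genes it is taken from, so calls lost among genes of that kind are not a check on them. For the lower genes described below, the value under this astrocyte-side scaling is given as well.

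The libraries held 42.9 to 50.3 M counts assigned to genes. The labelled cell type was checked against markers: all 20 astrocyte markers tested were higher in the IP than in the tissue RNA (Input) of ND, and all 14 microglia and all 14 oligodendrocyte markers were lower. Some neuronal markers were also higher in the IP: 14 of 16 interneuron (median log2 1.34) and 12 of 16 pan-neuronal markers (0.30). The median was 1.78 for astrocyte markers and 0.03 over all genes, of which 7.04% were over 2-fold higher and 9.42% over 2-fold lower. Of 36 projection neuron markers, 18 were lower in the IP and 5 were higher (median -0.21). The summed level of those markers in the IP had a median of 19611 CPM (counts scaled to a common library size) in ND, 19006 in NZ, 7258 in RD and 14231 in RZ. In the Input the medians were 25588, 24318, 9394 and 14086 CPM. The summed astrocyte markers had medians of 24517, 21694, 17799 and 13957 CPM in the IP, and the highest RZ library (14813 CPM) lay below the lowest RD library (16792 CPM). In the Input, RD and RZ overlapped for these markers, with medians of 5138 and 5255 CPM. Neuronal and astrocyte marker totals thus moved with the groups in the IP, and their part in the interactions below was not tested. Fewer cells of a type and less RNA per cell cannot be told apart in such libraries.

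**Figure D1:**
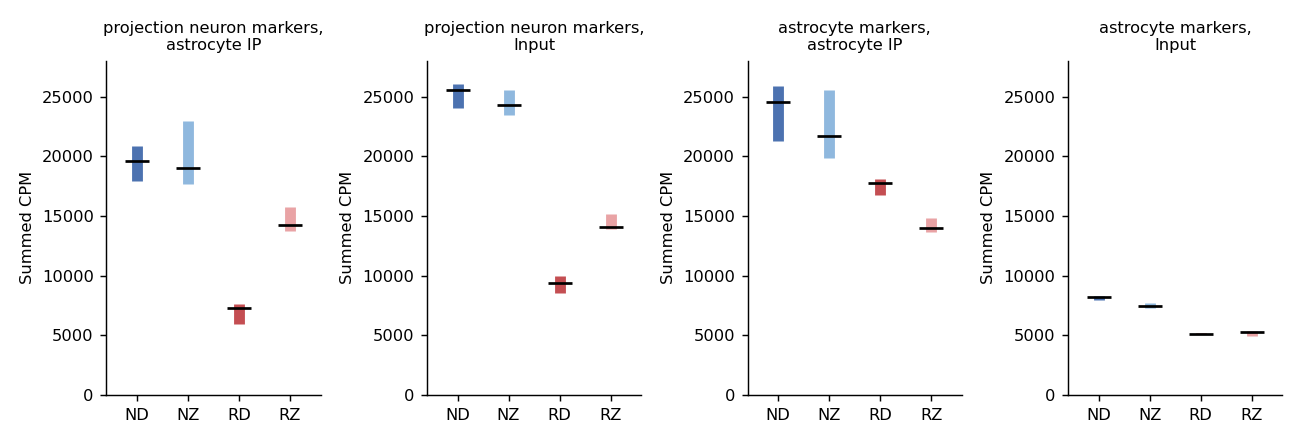
Summed level (CPM) of projection neuron and astrocyte markers in the IP and the Input, by condition; each bar spans the lowest to the highest library and the black dash is the median. Projection neuron markers were lowest in RD (median 7258 CPM in the IP) and between RD and ND in RZ, and astrocyte markers in the IP were lowest in RZ (13957 CPM).

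Most interactions lay in genes that responded to ZFP in R6/2 and not detectably in NCAR. With ZFP in R6/2 (RZ against RD), 2915 genes rose (19.1% of those tested) and 2236 fell (14.7%). In NCAR (NZ against ND), 183 rose (1.2%) and 133 fell (0.872%). Under the astrocyte-side scaling the splits were 7653 higher and 229 lower in R6/2, and 351 and 64 in NCAR, with the median of all genes at 0.26 and 0.09. Of the 2512 interaction genes, 2224 (1574 higher and 650 lower) were called in R6/2 alone, 53 in NCAR alone, 44 in both genotypes in the same direction, 14 in both in opposite directions and 177 in neither. The converse did not hold: of the 4942 genes called in R6/2 alone, 45.0% had an interaction, so a call in 1 genotype was often not a shown difference between them. The count in NCAR is also less firm than that in R6/2. It was 151 without NZ replicate 4, 203 without ND replicate 2, 641 without NZ replicate 3 and 833 by DESeq2.

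**Figure D2:**
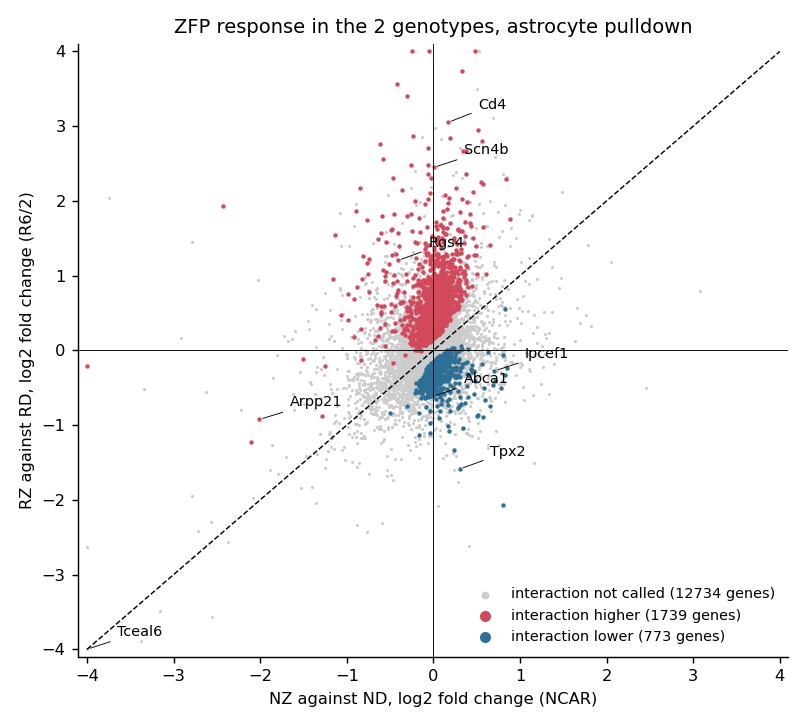
Log2 fold change with ZFP in NCAR (horizontal) against that in R6/2 (vertical) for each of the 15246 genes tested in the astrocyte pulldown; values beyond the axes are drawn at their edge, the dashed line marks equal responses, and colour marks genes with a called interaction. The 1739 higher genes (red) lie above the line and the 773 lower genes (blue) below it, mostly near 0 on the horizontal axis. Genes lowered in both genotypes lie to the lower left, and Tceal6, beyond both axes, is drawn at the corner.

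The higher genes were mainly those that were lower in R6/2 without ZFP. In the same libraries 1627 of the 1739 (93.6%) were lower in RD than in ND, where 24.7% of all genes were lower and 20.6% higher, but this contrast shares its RD and ND libraries with the interaction. Under the astrocyte-side scaling 1350 genes were higher and 4329 lower in RD than in ND, against 3141 and 3766. An independent measure came from a second astrocyte pulldown labelled MG, with 4 other libraries per condition. There 1242 of 1733 higher genes measured (71.7%) fell in RD against ND and 10 rose, with 16.2% of all genes tested falling and 17.4% rising. Of 772 lower genes measured, 404 (52.3%) rose and 6 fell. The direction of the interaction was thus mostly opposite to that of the genotype difference seen in other libraries.

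The RZ level did not reach that of NZ for every gene. In RZ against NZ, 8.99% of all genes were higher and 11.7% lower, and 520 of the 1739 higher genes (29.9%) were still lower, while 111 were higher. The mean level in RZ lay between those of RD and ND for 1173 higher genes (67.5%) and 523 lower genes (67.7%), against 49.6% of all genes. These genes were chosen by an interaction that uses the same RD, RZ and ND libraries, so nothing is read from these shares. On the linear scale, where the interaction is a difference of CPM rather than of logs, 7 higher genes and no lower gene changed sign, against 441 of all genes tested.

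Scn4b, a sodium channel beta subunit abundant in striatal projection neurons, showed the pattern of the largest genes. Its level was 1611, 1684, 1259.9 and 1287 CPM in ND and 1419, 1832, 1328 and 1278 CPM in NZ. It was 144, 94.8 and 134 CPM in RD and 679.99, 737, 642 and 652 CPM in RZ. No RZ library overlapped with RD or with either NCAR group, and ND and NZ overlapped. The log2 change was 2.45 ± 0.17 (SE) in R6/2 and 0.0038 ± 0.14 in NCAR, and the interaction was 2.44 ± 0.21 (adjusted p 1.45e-05).

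Cd4, a surface receptor best known on T cells, had the highest interaction of the named genes. It was at 5.28, 2.95 and 4.47 CPM in RD and 34.7, 39.05, 31.96 and 34.5 CPM in RZ, against 57.6, 65.4, 48.3 and 50.3 CPM in ND and 59.6, 81.1, 52.1 and 56.2 CPM in NZ. All RZ libraries were above all RD libraries and below all NCAR libraries. The interaction was 2.88 ± 0.25 (SE; adjusted p 1.3e-05).

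The other 10 of the 12 highest genes ranged from 1.69 to 2.43. They include Kcnh4, a voltage-gated potassium channel subunit (2.33 ± 0.18), Rasgrp2, an exchange factor for Rap proteins (1.94 ± 0.16), Hrh3, the histamine H3 receptor (1.91 ± 0.18), and Ryr1, an intracellular calcium release channel (1.70 ± 0.28). The remaining 6 were Sec14l3, Abi3bp, Ptpn7, Myo3b, Pthlh and Ier5l. For Kcnh4 the levels were 2.36, 1.74 and 2.12 CPM in RD and 10.6, 9.87, 10.7 and 9.9 CPM in RZ, and 20.8, 21.6, 17.2 and 18.9 CPM in ND and 16.2, 23.9, 18.9 and 17.99 CPM in NZ. Its RZ libraries thus fell in a narrow range between RD and NCAR, and ND and NZ overlapped.

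**Figure D3:**
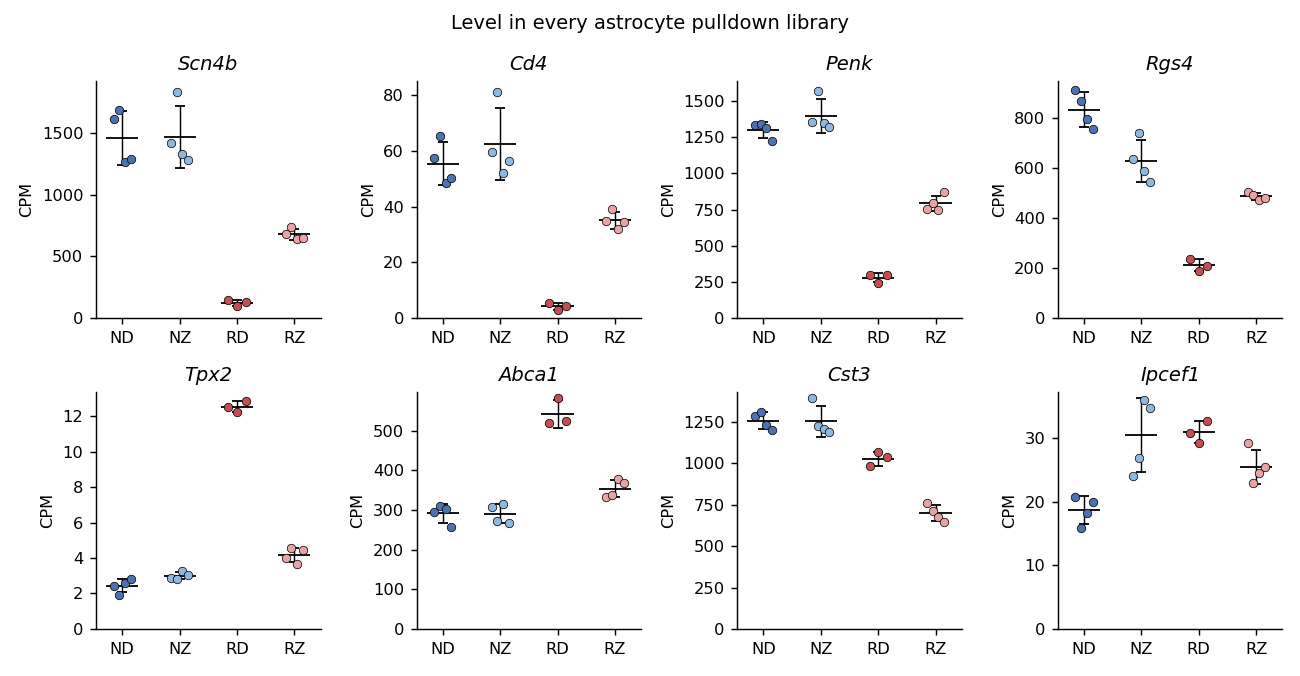
Level (CPM, linear axis from 0) of 8 genes in each of the 15 astrocyte pulldown libraries; points are libraries, the horizontal bar is the mean and the error bar the SD (n = 4, RD n = 3). Scn4b, Cd4, Penk and Rgs4 are low in RD and intermediate in RZ, Tpx2 and Abca1 are high in RD, Cst3 is lowest in RZ, and Ipcef1 is high in NZ relative to ND.

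Markers of projection neurons, interneurons and neurons in general had called interactions on the higher side alone. Of 36 projection neuron markers tested, 31 were higher and 0 lower (median 1.04), and of 16 interneuron markers 9 and 0 (median 0.76). Of 16 pan-neuronal markers, 8 were higher and 0 lower (median 0.28). These are shares to be read against 11.4% and 5.07% of all genes, and they move with the summed projection neuron markers given above. Under the astrocyte-side scaling the counts were 33, 9 and 9 higher with 0 lower in each. Cortical excitatory markers did not share this: none of 10 was called, and their median was -0.74, or -0.56 under that scaling.

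Penk, the precursor of enkephalins in indirect pathway projection neurons, was at 299, 244 and 298 CPM in RD and 756, 797, 749 and 868 CPM in RZ. Its levels were 1332, 1338, 1316 and 1221 CPM in ND and 1352, 1571, 1346 and 1321 CPM in NZ. The RZ libraries were well above RD and well below NCAR, and the interaction was 1.40 ± 0.11 (SE; adjusted p 2.54e-06). Among interneuron genes, Chat, the enzyme of acetylcholine synthesis, was at 31.2, 25.7 and 25.8 CPM in RD, 55.3, 48.5, 52.4 and 53.2 CPM in RZ, 60.7, 67.8, 74.5 and 52.2 CPM in ND and 64.6, 52.99, 70.1 and 61.1 CPM in NZ. Here RZ overlapped with both NCAR groups, and the interaction was 0.96 ± 0.16. Slc5a7, the choline transporter of the same cells, had 0.90 ± 0.12, and Kit 0.79 ± 0.07.

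Ion channel and signalling genes followed the same direction. Of 33 calcium signalling genes 24 were higher and 0 lower (median 0.59), and of 34 potassium channels 22 and 0 (median 0.55). Of 36 glutamate and GABA receptor genes 18 were higher and 0 lower (median 0.31), of 25 synaptic vesicle genes 14 and 0 (0.35), and of 37 genes of cAMP and G protein signalling 18 and 2 (0.29). Over all genes, 11.4% were higher and 5.07% lower. Camk4, a calcium-activated kinase, was at 274, 207 and 298 CPM in RD and 902, 1016, 887 and 743 CPM in RZ, against 958, 1021, 981 and 1027 CPM in ND and 898, 1279, 1098 and 1028 CPM in NZ. RZ overlapped with ND and NZ, and RZ against NZ was not called (log2 -0.28, adjusted p 0.12). The interaction of Camk4 was 1.66 ± 0.18 (SE; adjusted p 4.98e-05).

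Gabrd, the delta subunit of extrasynaptic GABA-A receptors, ranged from 32.9 to 40.2 CPM in RD, from 89.1 to 106 CPM in RZ, from 113 to 133 CPM in ND and from 114 to 148 CPM in NZ. All RZ libraries were above RD and below NCAR, with an interaction of 1.39 ± 0.13. Other named genes were Kcnq3, a subunit of M-type potassium channels (0.96 ± 0.09), Cplx2, a regulator of vesicle fusion (1.01 ± 0.12), Rph3a (0.76 ± 0.09), Grik2, a kainate receptor subunit (0.64 ± 0.07), and Cacna1h, a T-type calcium channel subunit (0.82 ± 0.10). The 2 lower genes of the signalling list were Gnai3 (-0.34 ± 0.05) and Gnai2 (-0.24 ± 0.07), both inhibitory G protein alpha subunits. Neither was called under the astrocyte-side scaling, at -0.17 and -0.07.

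**Figure D4:**
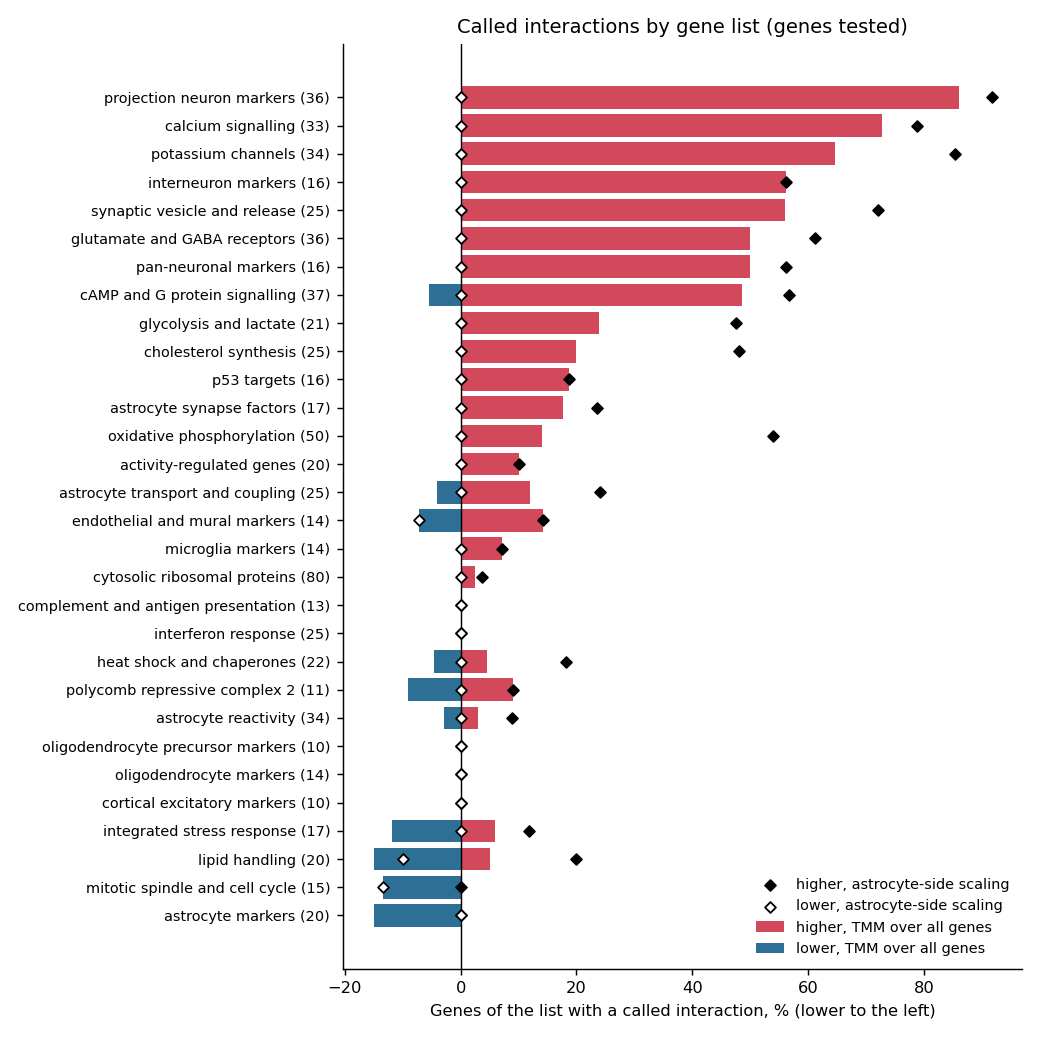
Share of each gene list with a called interaction, higher to the right and lower to the left, for lists with at least 10 genes tested (number in brackets); bars are scaled by TMM over all genes and diamonds by astrocyte-side genes. Projection neuron, interneuron, pan-neuronal, channel and synaptic vesicle lists lie to the right under both scalings. The 3 lower astrocyte markers are not called under the astrocyte-side scaling, which centres genes of that kind by design.

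Astrocyte markers had interactions on the lower side alone. Of 20 tested, 0 were higher and 3 lower (median -0.28), against 11.4% and 5.07% of all genes. A median below 0 was not particular to them. It was -0.30 for oligodendrocyte, -0.23 for microglia, -0.20 for endothelial and mural and -0.08 for oligodendrocyte precursor markers. For choroid plexus and ependymal markers it was 0.20. Of the 20 astrocyte markers, 18 fell in RZ against RD, where 14.7% of all genes fell. With astrocyte-side scaling none of the 20 had a called interaction (median -0.11, all genes 0.18), and 5 of them fell in RZ against RD. That scaling centres astrocyte-side genes by design, so the lost calls are not a check on the astrocyte markers. Gja1, the gap junction protein connexin 43 that couples astrocytes, was at 491, 508 and 496 CPM in RD and 389.6, 402, 388 and 396 CPM in RZ, and at 549, 571, 581 and 454 CPM in ND and 574, 509.6, 578 and 518 CPM in NZ. All RZ libraries were below all others, while RD overlapped with ND. The interaction was -0.36 ± 0.09 (SE; adjusted p 0.0176), but -0.19 (adjusted p 0.125) under the astrocyte-side scaling. F3, tissue factor, had -0.41 ± 0.10 and likewise lost its call, at -0.24 (adjusted p 0.114).

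Of 20 lipid handling genes 3 were lower (Abca1, Soat1 and Clu) and 1 higher. In all, 20% of the list was called, against 16.5% of all genes (11.4% higher and 5.07% lower). Abca1, which exports cholesterol to apolipoproteins, was at 519.5, 583 and 524 CPM in RD and 332, 339, 378 and 368 CPM in RZ. It was at 295, 309.7, 303 and 258 CPM in ND and 309, 271, 316 and 268 CPM in NZ. RD stood above all other groups, and RZ was below RD and above both NCAR groups. The interaction was -0.61 ± 0.10 (adjusted p 0.000842), and -0.45 (0.00111) under the astrocyte-side scaling. Soat1, which esterifies cholesterol for storage, had -0.48 ± 0.10, and -0.32 (adjusted p 0.0148) under that scaling. Clu, the secreted chaperone clusterin, had -0.40 ± 0.10 and was not called under that scaling (-0.23, adjusted p 0.0849). The higher gene was Cyp46a1, the cholesterol 24-hydroxylase found mainly in neurons (0.48 ± 0.11).

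Cst3, the secreted protease inhibitor cystatin C, differed from Abca1 in that RZ moved away from NCAR. It was at 983, 1067 and 1037 CPM in RD and 759, 711, 676 and 648 CPM in RZ, and at 1286, 1314, 1232 and 1201 CPM in ND and 1396, 1227, 1206 and 1190.1 CPM in NZ. RD was already below NCAR, and all RZ libraries were below RD. The interaction was -0.55 ± 0.08 (adjusted p 0.000428), and -0.38 (0.0159) under the astrocyte-side scaling. The summed astrocyte markers were also lowest in RZ.

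Other lists of astrocyte functions had between 5.88% and 23.8% of their genes called in either direction, against 16.5% of all genes. Of 25 cholesterol synthesis genes 5 were higher and 0 lower (median 0.13). In RD against ND 21 of the 25 fell, where 24.7% of all genes fell. The genes with a higher interaction included Dhcr7, the last enzyme of the pathway (0.36 ± 0.08). Under the astrocyte-side scaling 12 were higher. Of 25 transport and coupling genes 3 were higher and 1 lower, and the named higher ones, Grm5 (0.61 ± 0.08) and Adora1 (0.47 ± 0.06), are receptors also abundant in neurons. Of 34 reactivity genes 1 was higher and 1 lower, of 17 synapse factors 3 and 0, and of 21 glycolysis genes 5 and 0. Under the astrocyte-side scaling, with 2903 of 15246 genes higher, 10 of the 21 glycolysis genes and 6 of the 25 transport and coupling genes were higher.

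No interaction was called among 25 interferon response genes, 13 complement and antigen presentation genes, 14 oligodendrocyte and 10 oligodendrocyte precursor markers. By comparison, 11.4% of all genes were higher and 5.07% lower. Microglia markers had 1 of 14 higher and endothelial and mural markers 2 higher and 1 lower of 14. The lower one was Pdgfrb, a receptor of mural cells (-0.57 ± 0.09, and -0.40 under the astrocyte-side scaling). Of 80 cytosolic ribosomal protein genes 2 were higher, of 50 oxidative phosphorylation genes 7, and 27 of these 50 under the astrocyte-side scaling. Chaperones had 1 higher and 1 lower of 22, the lower one being Hspa5, the chaperone of the endoplasmic reticulum (-0.37 ± 0.08, and -0.20 without a call under that scaling).

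All genes were also sorted by a ratio between pulldowns of other libraries. Of 2021 genes over 2-fold higher in the MG astrocyte IP than in the neuron IP labelled n_ZFP_n_Rpl, both in ND, 28 were higher (1.39%) and 215 lower (10.6%), with a median interaction of -0.17. Of 1058 genes over 2-fold lower in the astrocyte IP, 255 were higher (24.1%) and 9 lower (0.851%), with a median of 0.26. Of 11643 genes within 2-fold, 12.4% were higher and 4.70% lower, and of all genes tested 11.4% and 5.07%. Under the astrocyte-side scaling, 64 of the genes over 2-fold higher in the astrocyte IP had a higher interaction and 32 a lower one. That scaling centres these genes by design, and the direction of their calls depended on the scaling. This sorting was chosen after the data were seen and is a description. Of the 28 higher genes on the astrocyte side, several belong to interneurons, such as Chat, Slc5a7, Lhx6 (0.65 ± 0.11) and Nos1 (0.63 ± 0.13). Others were Slc25a1, the mitochondrial citrate carrier (0.46 ± 0.08), and Vegfa, the vascular growth factor (0.40 ± 0.09).

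Tpx2 was the clearest gene of the lower side. It was at 12.5, 12.3 and 12.8 CPM in RD and 4.02, 4.58, 3.65 and 4.44 CPM in RZ, and at 2.41, 1.93, 2.6 and 2.8 CPM in ND and 2.89, 2.82, 3.28 and 3.06 CPM in NZ. RD stood far above the other groups, and RZ was still above every NCAR library. The interaction was -1.89 ± 0.16 (adjusted p 4.05e-06), and -1.72 under the astrocyte-side scaling. Of 15 mitotic spindle and cell cycle genes tested, only Tpx2 and Cenpe, a kinetochore motor (-0.69 ± 0.12), had an interaction. They were 13.3% of that list, against 16.5% of all genes called in either direction and 5.07% lower. Other low named genes were Tor3a, an endoplasmic reticulum ATPase (-0.92 ± 0.22), Ltbp4, a binding protein of latent TGF-beta (-0.91 ± 0.20), Nfya, a CCAAT-binding factor (-0.69 ± 0.12), and Mcm6, a subunit of the replicative helicase (-0.67 ± 0.13). With astrocyte-side scaling these remained called, at -0.75 for Tor3a, -0.73 for Ltbp4, -0.52 for Nfya and -0.50 for Mcm6, as did Cenpe at -0.52. Among the 12 lowest genes, Clk1 was not called under the astrocyte-side scaling (-0.57, adjusted p 0.0814).

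A smaller class of interaction genes was called with ZFP in NCAR and not in R6/2, where a missing call does not show an absent change. Of 107 genes called with ZFP in NCAR alone, 25 had a higher and 28 a lower interaction. Prkcb, protein kinase C beta, was at 2557, 2694, 2227 and 2584 CPM in ND and 1619, 1786, 1468 and 1563 CPM in NZ, and at 1113, 873 and 974 CPM in RD and 1123, 1198, 1089.8 and 1105 CPM in RZ. It fell in NCAR without overlap (log2 -0.64 ± 0.08), while in R6/2 the groups overlapped (0.19 ± 0.08, adjusted p 0.0856, but a called 0.46 under the astrocyte-side scaling). The interaction was 0.84 ± 0.11 (adjusted p 0.000205). Ipcef1 did the reverse, at 20.7, 15.8, 18.3 and 19.97 CPM in ND and 24.1, 26.99, 36.01 and 34.9 CPM in NZ against 30.9, 29.3 and 32.7 CPM in RD and 29.3, 22.98, 24.5 and 25.5 CPM in RZ. It rose in NCAR (0.70 ± 0.12) with an interaction of -0.98 ± 0.18, and -0.80 (adjusted p 0.0136) under the astrocyte-side scaling. Clk1, a splicing kinase, and Ccnl1, a cyclin of splicing, were of the same kind, but neither interaction was called under that scaling (adjusted p 0.0814 and 0.0611).

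The 14 genes called in opposite directions form a small set that depends on the scaling. With astrocyte-side scaling all 14 kept a called interaction, but 1 of them, Efna3, was still called in opposite directions. Snrnp48, Cenpe, Zw10 and Ccar1 were lower with ZFP in R6/2 and higher in NCAR, and under that scaling their R6/2 change lay between -0.06 and -0.01 without a call. Their interactions were then -0.57 for Snrnp48, -0.52 for Cenpe, -0.41 for Zw10 and -0.38 for Ccar1. Olfm2, Tuba4a, Arhgef3, A230070E04Rik, Fgf9, Ttll11, Adamts2, Efna3, Mei1 and Rgs4 rose in R6/2 and fell in NCAR. Rgs4, which speeds the shutdown of G protein signals, was at 912, 869, 796 and 756 CPM in ND and 638, 739, 589 and 543 CPM in NZ, and at 236, 189 and 209.8 CPM in RD and 503, 493, 472 and 481 CPM in RZ. No groups overlapped, so the 2 genotypes drew nearer from both sides. The log2 change was 1.20 ± 0.10 in R6/2 and -0.41 ± 0.09 in NCAR (-0.31, adjusted p 0.0759, under the astrocyte-side scaling), and the interaction was 1.61 ± 0.13 (adjusted p 4.99e-06).

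Of 76 genes lowered by ZFP in both genotypes, 5 (6.58%) had an interaction, against 16.5% of all genes and 39 of the 119 genes raised in both (32.8%). These classes were chosen by the same contrasts that make up the interaction, so nothing is read from the shares. The 5 lowered genes with an interaction were Arpp21, Rassf3 and Opcml, higher, and Ndrg3 and Pdk1, lower. The latter were not called under the astrocyte-side scaling (-0.16 and -0.07). Tceal6, a transcription elongation factor-like gene, had the largest fall, from 45.5, 50.8, 46.4 and 49.3 CPM in ND to 1.99, 1.46, 1.66 and 1.12 CPM in NZ and from 38.8, 36.3 and 35.9 CPM in RD to 1.41, 1.19, 1.83 and 1.88 CPM in RZ. The fall was 4.95 ± 0.14 and 4.55 ± 0.14 in size on the log2 scale, and the interaction of 0.39 ± 0.20 was not called (adjusted p 0.192). Under the astrocyte-side scaling the interaction of Tceal6 was called, at 0.57 (adjusted p 0.0315). Arpp21, a neuronal phosphoprotein, was at 729.8, 691, 640.1 and 778 CPM in ND, 185, 193, 147 and 181 CPM in NZ, 308, 219 and 275 CPM in RD and 140.3, 133, 133 and 157 CPM in RZ. It fell in both genotypes without overlap, NZ and RZ overlapped after unequal starts, and the interaction was 1.09 ± 0.15 (adjusted p 0.000333).

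Since repressors of this kind bind CAG repeats, the 250 bases before each gene's start were searched for CAGCAGCAGCAG, 4 repeat units, on both strands. Of 11329 genes with a sequence in the RefSeq promoter table (GRCm38.p6), 30 (0.265%) held it. It was held by 5 of 1236 genes with a higher interaction (0.405%), by 0 of 592 with a lower one, and by 4 of the 52 genes lowered in both genotypes (7.69%). The 5 were Anks1b, Arfip2, Extl1, Hnrnpdl and Mtus2, and the 4 were Mt3, Prelp, Primpol and Rsl24d1. None of these 4 had an interaction, with log2 values from -0.28 for Prelp to -0.02 for Primpol (Mt3 -0.10, Rsl24d1 -0.22). The windows of 3 of them are shown with 1 from the interaction genes (Hnrnpdl) and that of Scn4b, which has none of the repeat. Repeats are in capitals and each strand is that of the gene.
Rsl24d1: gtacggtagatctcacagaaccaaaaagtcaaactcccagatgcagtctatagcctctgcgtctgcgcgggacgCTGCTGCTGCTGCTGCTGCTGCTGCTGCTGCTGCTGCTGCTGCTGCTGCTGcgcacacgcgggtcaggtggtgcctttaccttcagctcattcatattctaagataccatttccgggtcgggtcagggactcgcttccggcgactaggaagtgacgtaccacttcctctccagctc
Prelp: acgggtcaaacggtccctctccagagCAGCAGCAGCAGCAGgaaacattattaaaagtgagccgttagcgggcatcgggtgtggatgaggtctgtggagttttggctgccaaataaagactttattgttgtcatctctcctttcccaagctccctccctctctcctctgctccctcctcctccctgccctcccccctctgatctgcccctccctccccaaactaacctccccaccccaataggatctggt
Mt3: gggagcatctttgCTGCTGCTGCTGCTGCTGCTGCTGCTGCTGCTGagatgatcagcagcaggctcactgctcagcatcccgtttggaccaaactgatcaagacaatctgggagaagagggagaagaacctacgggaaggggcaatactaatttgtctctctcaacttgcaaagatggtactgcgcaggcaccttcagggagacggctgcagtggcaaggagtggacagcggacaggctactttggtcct
Hnrnpdl: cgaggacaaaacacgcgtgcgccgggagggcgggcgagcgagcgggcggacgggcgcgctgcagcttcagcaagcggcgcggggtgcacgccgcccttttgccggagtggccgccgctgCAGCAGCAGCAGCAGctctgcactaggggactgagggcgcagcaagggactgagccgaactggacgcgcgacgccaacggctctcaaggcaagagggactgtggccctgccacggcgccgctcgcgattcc
Scn4b: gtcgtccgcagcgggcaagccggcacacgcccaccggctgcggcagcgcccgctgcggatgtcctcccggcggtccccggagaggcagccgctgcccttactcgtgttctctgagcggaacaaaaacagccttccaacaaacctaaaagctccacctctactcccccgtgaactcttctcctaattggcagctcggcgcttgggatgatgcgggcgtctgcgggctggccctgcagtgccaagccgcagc
The windows are chr9:73113219-73113468 (plus strand) for Rsl24d1, chr1:133921402-133921651 (minus) for Prelp, chr8:94152357-94152606 (plus) for Mt3, chr5:100039223-100039472 (minus) for Hnrnpdl and chr9:45138374-45138623 (plus) for Scn4b. Rsl24d1 fell by 1.16 in R6/2 and by 0.94 in NCAR on the log2 scale. Hnrnpdl, whose window also holds the repeat, rose in R6/2 (0.36) with an interaction of 0.45 ± 0.09. A match is a description of these letters and not a binding site. The palindromic cAMP response element TGACGTCA was held by 3.16% of higher and 4.05% of lower genes against 3.02% of all, and the EGR motif GCGGGGGCG by 8.82% and 5.91% against 5.55%. All motifs were searched on both strands, matches of different motifs may overlap, and these shares were not tested.

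The interaction in the Input of the same set had 1055 higher (6.69%) and 218 lower genes (1.38%) of 15780. Of the genes in the astrocyte fit, 854 were higher in both fractions, which is 49.1% of the IP list and 81.4% of the Input list. For lower genes the overlap was 104, or 13.5% of the IP list and 47.7% of the Input list. Tested as a difference between fractions without pairing, the interaction of 1 gene was higher in the IP (0.00615% of 16255) and of 5 lower (0.0308%). Same-numbered IP and Input libraries of a condition deviated together, and with each such pair as a block the count rose from 6 to 229 (105 higher and 124 lower). By DESeq2 it was 69.

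Among them were Matk, higher in the IP, and A930011O12Rik, Nup93, Stag1 and Trank1, lower. Trank1 had opposite interactions, -0.55 ± 0.13 in the IP and 0.60 ± 0.07 in the Input, with a difference of -1.20 ± 0.15 (adjusted p 0.000397). In the IP it was at 176, 206, 192 and 244 CPM in ND, 286, 252, 225 and 265 CPM in NZ, 260.2, 245 and 259.7 CPM in RD and 235, 217, 202 and 218 CPM in RZ, where ND overlapped with NZ and RZ. In the Input its means were 1034, 1069, 463 and 725 CPM. Its IP interaction was not called under the astrocyte-side scaling (-0.38, adjusted p 0.125). Matk, a kinase that restrains Src family kinases, had 0.84 ± 0.08 in the IP and 0.26 in the Input.

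In the neuron IP, made of 16 other libraries, 1281 genes were higher (8.47%) and 708 lower (4.68%) of 15126. Higher genes overlapped in 771, which is 44.3% of the astrocyte list and 60.5% of the neuron list, and lower genes in 145, or 18.8% and 20.5%. The higher genes of the astrocyte IP had a median change with ZFP of 0.48 in R6/2 and 0.01 in NCAR there, and of 0.20 and -0.12 in the neuron IP. The astrocyte values come from the libraries that chose these genes, so the sizes are not compared between the pulldowns. The difference between the pulldowns was higher in the astrocyte IP for 39 genes (0.249%) and lower for 52 (0.332%). By RLE size factors the split was 27 and 64. The count was 247 by DESeq2 and 170 with replicate numbers as a block.

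Of 20 activity-regulated genes, the interaction was lower in the astrocyte IP than in the neuron IP for 2, Nr4a1 and Per1, and higher for 0. Nr4a1, an orphan nuclear receptor induced by neuronal activity, had -0.68 in the astrocyte IP (adjusted p 0.529) and 2.68 in the neuron IP, with a difference of -3.35 ± 0.70 (adjusted p 0.0233). In the astrocyte IP it was at 23.3, 17.98, 28.4 and 66.00 CPM in ND, 48.2, 97.99, 53.5 and 104 CPM in NZ, 38.2, 15.9 and 24.5 CPM in RD and 27.3, 34.5, 32.1 and 51.9 CPM in RZ. In the neuron IP it was at 123, 165, 186 and 226 CPM in ND, 35.03, 38.4, 48.5 and 68.01 CPM in NZ, 29.9, 19.3, 27.6 and 25.5 CPM in RD and 33.2, 49.5, 51.3 and 43.7 CPM in RZ. The neuron ND libraries stood above all others there, and the astrocyte libraries of ND were spread widely. In the separate fits, 2 of the 20 activity-regulated genes were higher in the astrocyte IP (Homer1, 0.82 ± 0.10, and Egr3, 1.09 ± 0.20). That is 10% of the list, near the 11.4% of all genes. In the neuron IP 13 of the 20 were higher, against 8.47% of all genes there.

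Tiparp, an ADP-ribosyltransferase, reversed between the pulldowns. It was at 44.97, 44.4, 44.4 and 55.5 CPM in ND, 57.02, 67.03, 62.3 and 71.7 CPM in NZ, 55.02, 48.1 and 49.05 CPM in RD and 46.8, 47.97, 36.9 and 44.9 CPM in RZ in the astrocyte IP, where NZ was above all other groups. Its interaction was -0.65 ± 0.14 there and 1.44 ± 0.16 in the neuron IP, with a difference of -2.08 ± 0.22 (adjusted p 1.25e-05). The astrocyte value was not called under the astrocyte-side scaling (-0.47, adjusted p 0.0937). On the other side, Ckmt1, the mitochondrial creatine kinase, had 0.62 in the astrocyte IP and -0.63 in the neuron IP, a difference of 1.27 ± 0.23 (adjusted p 0.00651).

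**Figure D5:**
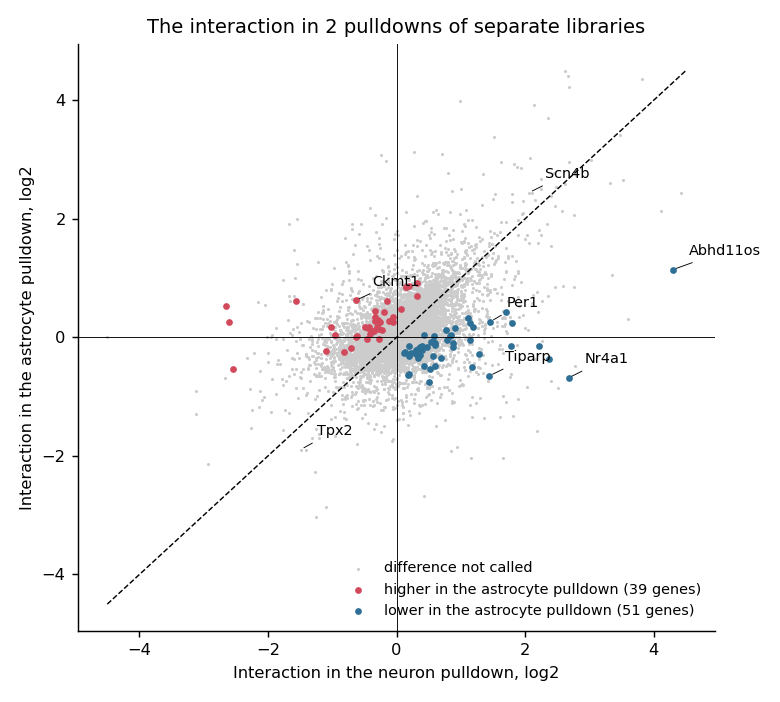
Log2 interaction in the neuron pulldown (horizontal) against that in the astrocyte pulldown (vertical) for the 14863 genes tested in both; values beyond the axes are drawn at their edge and the dashed line marks equality. Coloured points are genes whose interaction differed between the pulldowns (39 higher and 51 lower in the astrocyte pulldown), with Nr4a1 and Tiparp far to the right of the line, while Scn4b and Tpx2 lie near it.

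The MG astrocyte IP gave no such interaction. Of 15342 genes, 0 were higher (0%) and 0 lower (0%) by edgeR, with 1143 genes at an unadjusted p under 0.05 and 49 genes called by DESeq2. The median log2 interaction there was 0.17 for the genes higher in the n_ZFP_a_Rpl IP and -0.11 for the lower ones, against -0.016 over all genes tested in both. For Scn4b it was 0.64 ± 0.28 (adjusted p 0.652), and for Abca1 -0.23 ± 0.18 (adjusted p 0.781). Whether the interactions of the 2 astrocyte sets differ was not tested.

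Mouse Htt, the endogenous orthologue of the disease gene, had no detectable interaction. It was at 436, 425, 414 and 423 CPM in ND, 464, 449.6, 419.9 and 457 CPM in NZ, 404, 409.7 and 407 CPM in RD and 424, 416, 395 and 384 CPM in RZ, and the groups with and without ZFP overlapped in both genotypes. The interaction was -0.08 ± 0.06 (adjusted p 0.348). The human transgene was not analysed here. Among 9 orthologues of polyglutamine disease genes, Atxn1 (0.49 ± 0.08) and Cacna1a (0.28 ± 0.07) were higher and Atxn7 (-0.30 ± 0.08) lower, and Atxn7 was not called under the astrocyte-side scaling (-0.13). Of that list 22.2% were higher and 11.1% lower, against 11.4% and 5.07% of all genes. Rpl22, the tagged ribosomal protein, had an interaction of 0.23 ± 0.21 (adjusted p 0.528), and was lower in RD than in ND (log2 -0.88 ± 0.16, adjusted p 0.000547).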

How the data were processed

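RiboTag IP and Input RNA libraries were sequenced by the authors. Per the submitters' processing notes, STAR, HTSeq and the mm10 build were used; their versions were not given in the sources used. The deposited values are raw counts per gene, 24060 rows in all, less 4 whose symbol occurs more than once. Counts were analysed in R 4.3.3 with edgeR 4.0.16 (TMM scaling, robust quasi-likelihood fit, genes kept by filterByExpr with a minimum count of 10 and total of 15, Benjamini-Hochberg adjusted p under 0.05), with limma 3.58.1 and DESeq2 1.42.0 as alternatives. The IP interaction was fitted on the 15 libraries; differences of interactions were fitted on both sets together. The fit was tested on simulated data. CPM values are TMM-scaled.

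The genes named are the 12 highest and 12 lowest interactions among genes past the threshold with every library left out in turn and a mean of at least 5 CPM (passing over Gm, Rik, -ps, histone and sex-linked genes), up to 2 per direction and list, and Htt and Rpl22. Further genes were named after their values were seen, as examples of a class or comparison. Some genes that the rule names are not reported here. Members and lists were chosen with earlier results of these data known. Same-numbered IP and Input libraries of a condition deviated together (correlation 0.395 to 0.600, 15 of 15 pairs over 0.1), so these numbers pair the fractions. Promoters came from RefSeq. Alternatives were other size factors, no filter, DESeq2, limma-voom, a 1.5-fold threshold, a replicate block, leaving out each library and, added after the data were seen, astrocyte-side scaling.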

Additional observations from a re-analysis of the deposited data

Results flagged for a closer look

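The ZFP response differed between genotypes for 2512 genes in the astrocyte IP, by the test of the interaction itself. The interaction differed between IP and Input for 6 genes in a fit that left out the pairing of their libraries. With each pair as a block it differed for 229 genes. Between the astrocyte and neuron pulldowns it differed for 91 genes. All these counts are by a test of the difference. Among 60 groups of 4 libraries, 2 had 1 library that stood apart from the others by Dixon's criterion, which chance meets in about 1 of 20 groups. For Penk, NZ replicate 2 was at 1571.38 CPM and the other NZ libraries were between 1320.7 and 1352.48 CPM. For Tiparp, ND replicate 4 was at 55.4557 CPM and the other ND libraries were between 44.3897 and 44.9743 CPM.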

How the results depend on the processing

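The count of 2512 interaction genes was between 2279 and 3007 under DESeq2, RLE size factors, no filter, limma-voom, astrocyte-side scaling and the replicate block (2430 genes), and 2041 to 2698 with each library left out, but 93 when a change above 1.5-fold was tested for. DESeq2 gave 833 genes for ZFP in NCAR (316 by edgeR), 49 for the MG interaction (0), 69 for IP less Input (6) and 247 for astrocyte less neuron (91). Without the filter on low counts the MG interaction had 1 gene. Astrocyte-side scaling gave 7882 genes for ZFP in R6/2 (5151). With the replicate block, IP less Input had 229 genes and astrocyte less neuron 170; same numbers did not pair conditions within the IP (median correlation 0.012, 3 of 21 pairs over 0.1). With each library left out, counts ranged from 151 to 641 for ZFP in NCAR, 837 to 1293 for the Input interaction, 0 to 3 for the MG interaction, 3 to 17 for IP less Input and 51 to 136 for astrocyte less neuron. The cause of these shifts was not tested. Of the 80 named genes, none with a call in the main fit or the alternative changed sign between them. Htt, called in neither, was negative in the main fit and positive (0.09) under astrocyte-side scaling. With each library left out, 9 of them lost a call in at least 1 of 15 settings, and 59 did not pass the 1.5-fold test. Under astrocyte-side scaling 11 lost their call: Clk1, F3, Gja1, Ugt1a6a (adjusted p 0.122), Gnai3, Gnai2, Eed, Hspa5, Psat1, Atf3 (0.0534) and Atxn7. With 3 libraries in RD and 4 in each other group, many small differences may have gone undetected.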
